A study of Rattus norvegicus with 6 samples.

Results

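The resting state of rat bone marrow stromal cells kept beside microglia was described from the 3 untreated libraries of a series of 6. The cells were wild-type bone marrow mesenchymal stem cells of the cell line SCSP-402, in co-culture with BV2, a mouse microglial line. The 3 libraries used here received no lipopolysaccharide (LPS), and all libraries of the series carry the same batch label. The 3 libraries of the LPS-stimulated co-culture were not analysed here. The labels do not say whether the 2 cell types were separated by an insert, or whether the 3 replicates came from separate cultures, so the spread between libraries may be technical. Their RNA was poly(A)-selected and sequenced in pairs from strand-marked libraries. The deposited table holds 19266 genes with a count and an FPKM value (fragments per kilobase of transcript, scaled to the size of the library) in each library. Totals were 80818600, 77376671 and 80717943 count units in replicates 1, 2 and 3.

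Marrow stromal cells are fibroblast-like cells that can give rise to bone, cartilage and fat, build the collagen scaffold of the marrow, and release factors that act on blood and immune cells. They are recognised by surface proteins such as Thy1, Cd44 and Pdgfrb and by the absence of the leukocyte antigen Ptprc. Collagen is made as a chain that is hydroxylated, folded and trimerised in the endoplasmic reticulum, carried out through the Golgi, trimmed outside the cell and crosslinked there.

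The 3 libraries did not lie equally close to each other, and replicate 1 stood apart from replicates 2 and 3. Among the 11396 genes with a mean of at least 1 FPKM, 112 were at least 2-fold apart between replicates 1 and 2 on the log2(FPKM + 0.5) scale. The number was 97 between replicates 1 and 3 and 47 between replicates 2 and 3. Many levels that rest on replicate 1 are therefore given library by library, and others, such as those of Mmp2 and Slc1a3, only as a mean. Means are given ± SD over the 3 libraries (n = 3), and no test between groups was possible within a single group.

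A gene was called expressed when it reached 1 FPKM in all 3 libraries, and near 0 when it stayed under 0.1 FPKM in all of them. Of the 19266 genes, 11063 were expressed, which is 57.4%. 4431 genes reached 10 FPKM in every library, 384 reached 100 and 26 reached 1000. 3712 genes were near 0 and 1013 had a count of 0 in every library. A count of 0 allows the gene up to 0.0371, 0.0388 and 0.0372 CPM (counts scaled to the library total) in replicates 1, 2 and 3 if a deposited unit is 1 fragment. It allows up to 0.148, 0.155 and 0.149 CPM if a fragment is 4 units, which is an assumption, and both bounds cover counting error only. Of the 16486 protein-coding genes 10524 were expressed, against 312 of 1416 genes annotated as long non-coding RNA.

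The most abundant RNAs were those of the collagen matrix, the contractile cytoskeleton and the mitochondrial genome. Col1a1, the α1 chain of type I collagen, stood first with 9197, 9927 and 9911 FPKM in replicates 1, 2 and 3. Col1a2, its α2 chain, had 7387, 8398 and 8310 FPKM, and Col3a1, the chain of type III collagen, had 4819, 5243 and 5239. In all of these 3 collagen genes replicate 1 was the lowest library. Vim, the intermediate filament of mesenchymal cells, followed with 4360, 4228 and 4123 FPKM. Thbs1, a matrix glycoprotein known to activate latent TGF-beta, had 3536, 3326 and 3261, and Sparc, a collagen-binding glycoprotein, had 3070, 3325 and 3145. For Vim and Thbs1 replicate 1 was the highest library, and for Sparc replicate 2.

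The same 30 genes made up the top 30 of each library. 11 of them belonged to the lists of collagens, matrix glycoproteins and proteoglycans, and 9 were genes of the mitochondrial genome, led by Mt-co1 at 7027 ± 335 FPKM. The other 10 included the actins Actb (2525 ± 63.7), Actg1 (1221 ± 7.73) and Acta2, the elongation factor Eef1a1 (2289 ± 68.4), and Ccdc80, a secreted matrix protein (2009 ± 162). Serpinh1, the collagen chaperone, was among them too. Together the 30 genes held 25.6% ± 0.437 of the summed FPKM and 28.8% of the counts. A single gene, Col1a1, held 3.17% of the FPKM and 6.13% of the counts.

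**Figure D1:**
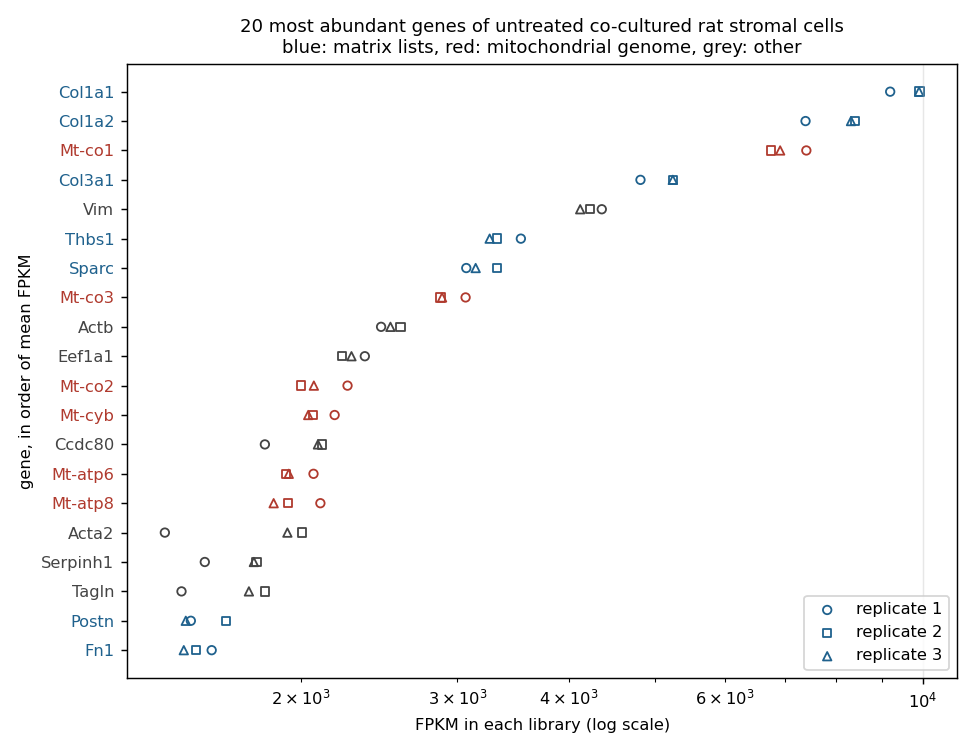
Levels of the 20 most abundant genes (vertical axis, in order of mean) in FPKM on a log scale, with 1 symbol per untreated library. Blue gene names belong to the matrix lists, red ones to the mitochondrial genome and grey ones to neither; Acta2, with 1407, 2005 and 1932 FPKM, shows the lowest circle relative to its other symbols.

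To set sequence beside level, the promoters of the 50 most abundant genes were looked up in RefSeq (build GRCr8), which gave a unique entry for 28 of them. The letters TATAAA on the sense strand, starting and ending between bases -45 and -16 before the transcript start, were found in 6 of the 28, which is 21.4%. They were found in 1.62% of all 33469 promoters of that table and in 0.962% of the promoters of expressed genes. Among genes near 0 the share was 3.78%. The 6 promoters are shown because they carry the motif, with bases -60 to -1 printed 5′ to 3′ and the motif in capitals. Postn and Ccn2 encode secreted matrix proteins, S100a4 a calcium-binding protein of fibroblasts, Rplp0 and Rps2 ribosomal proteins, and Calr a chaperone of the endoplasmic reticulum.
Postn, chr2:140678001-140678060, plus strand: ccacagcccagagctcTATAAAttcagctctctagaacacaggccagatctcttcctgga
Ccn2, chr1:22624615-22624674, minus strand: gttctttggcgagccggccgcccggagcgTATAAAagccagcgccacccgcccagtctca
S100a4, chr2:178388469-178388528, plus strand: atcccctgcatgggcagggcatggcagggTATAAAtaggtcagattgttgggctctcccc
Rplp0, chr12:46718391-46718450, minus strand: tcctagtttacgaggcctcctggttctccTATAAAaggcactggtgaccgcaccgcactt
Rps2, chr10:14251788-14251847, plus strand: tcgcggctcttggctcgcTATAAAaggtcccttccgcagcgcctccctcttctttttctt
Calr, chr19:40213307-40213366, plus strand: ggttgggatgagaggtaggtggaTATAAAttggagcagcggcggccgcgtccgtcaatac
In 3 of the 6 the motif began at base -31, namely in Ccn2, Rplp0 and S100a4. It began at -37 in Calr, -42 in Rps2 and -44 in Postn. Col1a2, Vim, Thbs1 and Sparc did not hold these letters in the window, which says nothing about the factors that bind there. A CArG box, the element bound by serum response factor, was searched only as the letters CC, 6 bases of A or T, and GG. These letters lay in the 250 bases before the start of 0 of 11 expressed smooth muscle list genes with a promoter. They lay there in 1.5% of all promoters. Boxes with other letters were not searched, and 11 promoters are too few at that share to show a lack.

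The secreted matrix took a large share of the RNA. The collagens, matrix glycoproteins and proteoglycans together held 15.2%, 16.1% and 16.04% of the summed FPKM in replicates 1, 2 and 3, a mean of 15.8% ± 0.537. Replicate 1 was the lowest. On the deposited counts, where long transcripts weigh more, the share was 25.9% ± 0.673, and the 2 type I chains alone held 10.2%.

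Of the 11 fibrillar collagen genes 9 were expressed, 81.8% against the 57.4% of all genes. Besides types I and III these included the type V chains Col5a2 (1092 ± 70.3 FPKM) and Col5a1 (798 ± 63.5), which regulate fibril diameter, and Col11a1 (367 ± 36.5). The chain of cartilage collagen, Col2a1, had 0.349, 0.165 and 0.216 FPKM and was not expressed. Ratios between chains of the same collagen varied little between libraries. Col1a1 to Col1a2 was 1.21 ± 0.0337, although the protein holds more α1 than α2 chains. Col6a1 to Col6a2 was 1.23 ± 0.00699, and Col4a1 to Col4a2 1.14 ± 0.00597. Col6a3 to Col6a1 was less even, at 0.397, 0.432 and 0.444. Between types, Col3a1 to Col1a1 was 0.527 ± 0.00257.

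Of 30 other collagen genes 15 were expressed, 50% against the 57.4% of all genes, led by Col12a1 (410 ± 13.3 FPKM), which coats fibrils in tendon and ligament, and the type VI chains Col6a1 (375 ± 39.4), Col6a2 (306 ± 30.5) and Col6a3 (160 ± 25.4). The basement membrane chains Col4a1 and Col4a2 stood at 113 ± 5.16 and 98.9 ± 4.34 FPKM, while Col4a3, Col4a4 and Col4a6 stayed under 0.5. Col10a1, of hypertrophic cartilage, had 0.0852 ± 0.0736 FPKM.

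66 of 80 matrix glycoproteins (82.5%) were expressed, after Thbs1 and Sparc led by Postn (1546 ± 88.4 FPKM) and Fn1, fibronectin (1530 ± 55.5). Thbs2 was higher in replicate 1, with 1235 against 886 and 881 FPKM. Elastin, Eln, was low at 2.81, 5.02 and 6.56 FPKM, while the microfibril gene Fbn1 had 112 ± 13.9 and Fbln2 347 ± 45.1. 27 of 34 proteoglycans (79.4%) were expressed, where both lists stand against 57.4% of all genes. Bgn, biglycan, led with 1474 ± 41.3 FPKM, then Aspn, asporin, with 440 ± 2.85 and Gpc1, a membrane glypican, with 392 ± 25.3. Decorin, Dcn, and lumican, Lum, were uneven: Dcn had 167 FPKM in replicate 1 against 91.9 and 97.7, and Lum 246 against 155 and 165. The brain proteoglycans Bcan and Ncan had a count of 0 in every library.

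Nearly all genes listed for collagen processing and for protein folding and transport were expressed, against 57.4% of all genes. The folding and transport lists are not particular to collagen. 26 of 30 genes for collagen processing and crosslinking (86.7%) were expressed, among them Serpinh1 (1705 ± 126 FPKM), the procollagen trimming enhancer Pcolce (549 ± 19.2), the crosslinking oxidase Lox (468 ± 32.3) and P4hb, a subunit of prolyl hydroxylase (439 ± 32.0). Adamts3, Tgm2 and P3h2 stayed under 1 FPKM on average, and Colgalt2 had 0.841, 2.04 and 1.89. 37 of 38 genes for translocation and folding in the endoplasmic reticulum were expressed, the exception being Manf (0.492 ± 0.357). All 35 genes for transport to the Golgi were expressed. They included the cargo receptor Mia3 (29.9 ± 0.0735 FPKM), known for exporting procollagen, and the transcription factors Creb3l1 (86.1 ± 4.83) and Xbp1 (75.8 ± 3.55).

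31 of 42 protease genes were expressed, 73.8% against 57.4% of all genes, led by the lysosomal protease Ctsb (382 ± 15.9 FPKM), the gelatinase Mmp2 (379 ± 61.9), Htra1 (210 ± 25.2) and Mmp14, the membrane protease that activates Mmp2 (188 ± 4.58). Mmp9, the other gelatinase, had 1.76, 0.373 and 0.482 FPKM, and Mmp3, stromelysin, 2.45, 0.951 and 0.912. Both were highest in replicate 1. Of 22 inhibitors 14 were expressed, and the 63.6% is near the 57.4% of all genes. They included Serpinf1 at 397 ± 7.52 FPKM, Timp1 268 ± 28.7 and Serpine2 104 ± 1.17, whereas Timp4 had 0.362 ± 0.198.

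Most stromal surface markers were expressed. Of the 20 listed stromal surface genes 17 were expressed, 85% against 57.4% of all genes, also without any 1 of the libraries. Itgb1, the common β1 integrin chain, had 495, 541 and 533 FPKM. Cd63 had 328 ± 7.65, and Thy1, known as CD90, had 237, 237 and 241. Pdgfrb had 68.7, 71.3 and 73.1 FPKM. All of these lay close together in the 3 libraries. Cd44, the hyaluronan receptor, had 46.3 ± 2.24 and Eng, known as CD105, 7.65 ± 0.126. Nt5e, known as CD73 and part of the usual definition of these cells, was low, with 5.29, 3.27 and 3.74 FPKM. Pdgfra and Anpep were higher in replicate 1, with 47.2 against 28.5 and 29.6 FPKM and 93.3 against 54.5 and 58.0. Vcam1, Lepr and Ngfr, markers of stroma in living marrow, were the 3 not expressed, at 0.190, 0.132 and 0.0433 FPKM on average.

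Markers of blood cells were mostly missing. 4 of 14 haematopoietic genes were expressed, 28.6% against 57.4% of all genes. Ptprc, known as CD45, had 0.0174, 0.00621 and 0.0129 FPKM, Cd34 had 0.305 ± 0.0450, and Cd79a stayed near 0. The 4 exceptions were Runx1 (52.3 ± 1.09 FPKM) and Ebf1 (8.97 ± 1.13), transcription factors that stromal cells are also known to use, Cd48 (12.6 ± 1.04) and Cd14, a co-receptor for LPS (8.23 ± 1.26).

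Since the culture also held microglia, 31 markers of microglia and macrophages were read in the same table, which was built on the rat genome. 5 were expressed, 16.1% against 57.4% of all genes, and 14 were near 0. Aif1, known as Iba1, had a count of 0 in every library. Itgam, Cx3cr1 and C1qa were near 0, with means of 0.00655, 0.0217 and 0.00546 FPKM, and Csf1r had 0.176, 0.124 and 0.0588. The highest of the 5 was Tmem119, a microglial membrane protein also known from mouse osteoblasts, with 62.4, 65.1 and 66.6 FPKM. Csf2ra, a cytokine receptor chain, had 4.13 ± 0.179, and Lyz2, lysozyme, 1.28 ± 0.230. Fcer1g was uneven, with 9.62, 1.20 and 7.01 FPKM, and its value is uncertain because its annotated span is not its own alone. Another of the 5 is not named here, and 3 of the 5 reached 2 FPKM in every library. How many mouse fragments aligned to the rat genome is not known, and in a bulk sample fewer cells of a type and less RNA per cell cannot be told apart.

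**Figure D2:**
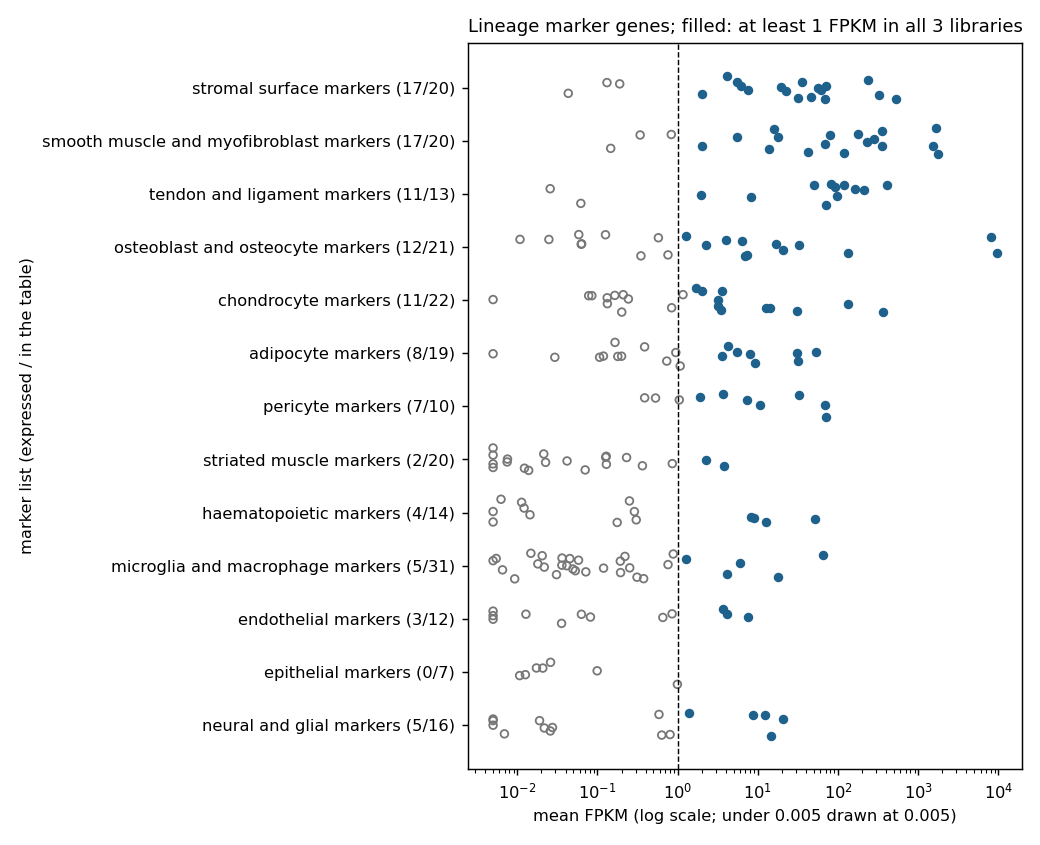
Mean FPKM of each marker gene over the 3 untreated libraries (horizontal axis, log scale) for 13 lineage lists (rows), with the number expressed and the number in the table after each name. Filled points reached 1 FPKM, the dashed line, in all 3 libraries; the stromal, smooth muscle and tendon lists lie mostly to its right, and the microglial, epithelial and striated muscle lists mostly to its left.

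Among the lists of lineages that marrow stroma can enter, those of tendon and of contractile cells had the highest medians. These were 80.8 and 74.4 FPKM, against 2.34 over all genes. The medians of the bone, cartilage and fat lists were 2.23, 1.42 and 0.950 FPKM. Medians depend on which genes a list holds, and the lists were chosen with earlier results of these data known, so they do not rank the lineages. The tendon list shares Tnc and Thbs4 with the matrix glycoproteins and Egr1 with the immediate early genes, while the bone list holds osteocyte genes such as Dmp1. 11 of 13 tendon and ligament genes were expressed, 84.6% against 57.4% of all genes. Scx, the transcription factor of tendon progenitors, had 63.6, 76.0 and 74.0 FPKM. Tnmd, tenomodulin, a membrane protein of mature tendon, had 74.3, 85.3 and 82.9, and Mkx, a tendon homeobox factor, had 9.95, 7.21 and 7.68. Scx and Tnmd were lowest in replicate 1, Mkx highest. The matrix genes of the list included Col12a1, Tnc (211 ± 15.3 FPKM), Thbs4 (98.3 ± 5.19) and Fmod (49.6 ± 4.29). Kera and Ptx4 were not expressed.

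17 of 20 smooth muscle and myofibroblast genes were expressed, 85% against 57.4% of all genes. Acta2, smooth muscle actin, had 1407, 2005 and 1932 FPKM, and its ratio to Actb was 0.571 in replicate 1 against 0.774 and 0.766. Tagln had 1469, 1822 and 1749 FPKM, and Cnn1, calponin, 101, 132 and 120. Myh11, the smooth muscle myosin, was present at 11.77, 18.004 and 18.11. In all 4 genes replicate 1 was the lowest library. Myocd, the co-activator that drives smooth muscle genes, stayed just under the threshold in every library, with 0.645, 0.918 and 0.939 FPKM, while its partner Srf had 23.4 ± 1.03. Of 10 pericyte genes 7 (70%) were expressed, but Rgs5 had 0.388 ± 0.275 FPKM. Of 20 striated muscle genes 2 (10%) were expressed, Acta1 (3.82 ± 1.36) and Tnnt3 (2.27 ± 0.618).

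12 of 21 osteoblast and osteocyte genes were expressed, at 57.1% no more often than the 57.4% of all genes. Besides the type I chains these were Spp1, osteopontin (132 ± 10.9 FPKM), Alpl, alkaline phosphatase (16.7, 21.5 and 23.5), the transcription factors Runx2 (7.24 ± 0.542) and Sp7 (6.27 ± 1.17), and Ibsp (4.05 ± 1.10). Bglap, osteocalcin, and the osteocyte gene Dmp1 were near 0 at 0.0636 and 0.0108 FPKM. Phex, Mepe and Fgf23, also of mature bone cells, stayed under 0.13 in every library.

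11 of 22 chondrocyte genes were expressed, 50% against 57.4% of all genes. Acan, aggrecan, had 99.7, 147 and 151 FPKM and Sox9, the cartilage transcription factor, 13.7, 15.4 and 13.7. Scx stood at 5.00 ± 0.386 times the level of Sox9. The cartilage genes Col2a1, Col10a1, Matn3 and Ihh were not expressed. 8 of 19 adipocyte genes (42.1%) were expressed, led by the early factors Cebpd (78.7, 43.2 and 37.5 FPKM) and Cebpb (45.4, 26.0 and 24.2), both highest in replicate 1. Pparg, the master factor of fat cells, had 0.777, 1.04 and 1.04, and Fabp4, Adipoq and Plin1 of mature fat cells stayed under 0.3.

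Most listed markers of endothelial, epithelial and neural cells were not expressed, while 57.4% of all genes were. Of 12 endothelial genes 3 (25%) were expressed, Eng, Egfl7 (4.11 ± 0.140 FPKM) and Erg (3.71 ± 0.522), while Pecam1, Cdh5 and Plvap had a count of 0 in every library. None of the 7 epithelial genes with an entry was expressed, the highest being Krt8 with 1.17, 0.970 and 0.845 FPKM. Epcam and Cdh1, also on the epithelial list, had no entry and were not read. Of 16 neural and glial genes 5 were expressed, led by Ncam1 (20.8 ± 2.33), the glutamate transporter Slc1a3 (14.5 ± 2.80) and Tubb3 (12.4 ± 0.292). Gfap, Mbp and Elavl3 were near 0.

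778 of the 1165 transcription factors in the authors' family column were expressed, 66.8% against 57.4% of all genes. Id3, an inhibitor of basic helix-loop-helix factors, was the highest, with 219, 295 and 265 FPKM. Atf4, a stress-response factor, followed with 263, 263 and 251, and Fos, an immediate early factor, with 276, 184 and 238. All 13 immediate early and AP-1 genes with an entry were expressed, against 57.4% of all genes, on a list made after the table was opened. Among them were Egr1 (165 ± 18.01), Jund (126 ± 4.40) and Jun (53.3 ± 3.90). Fos and Fosb (76.9, 37.1 and 64.2) were lowest in replicate 2.

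Of 70 mesenchymal transcription factors 48 (68.6%) were expressed, near the share of all transcription factors. After Id3 the limb and facial mesenchyme factors Prrx1 (154, 106 and 107 FPKM) and Prrx2 (73.1 ± 1.70) led, then Snai1 (58.5 ± 5.32), a factor of epithelial-mesenchymal transition. Shox2 (19.6 ± 1.96) and Tbx15 (20.9 ± 0.379), known from limb development in mouse, were expressed as well. Tbx5 and Pitx1, markers of mouse forelimb and hindlimb, stood at 2.48 ± 0.277 and 3.29 ± 0.291 FPKM, and Tbx4 at 0.172 ± 0.0400. Of 33 Hox genes, which mark position along the body, 11 (33.3%) were expressed. The highest were Hoxa9 (8.99 ± 0.474 FPKM), Hoxa11 (6.87 ± 0.309), Hoxd8 (5.997 ± 0.663) and Hoxc10 (4.54 ± 0.708). The Hox genes of group 13 stayed under 0.3 in every library, and of the b cluster none reached 1 FPKM in all 3. Of 5 pluripotency factors with an entry Klf4 (39.8 ± 7.05) and Myc (37.0 ± 3.55) were expressed, and Lin28a had a count of 0. The share over all genes was 57.4%. Pou5f1, Nanog and Sox2, also on that list, had no entry and were not read.

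Genes of the cell cycle were expressed throughout. All 31 cell cycle genes were expressed, against 57.4% of all genes. They included Mki67 (7.84, 8.91 and 9.21 FPKM) and Top2a (10.6, 12.8 and 11.8), and also the inhibitors Cdkn1a (27.8 ± 2.52) and Cdkn2a (16.01 ± 1.31). Mki67 and Top2a were lowest in replicate 1, and replicate 1 was the highest library for 12.9% of the list against 41.6% of all genes compared. The Y-linked genes Eif2s3y (15.0 ± 0.410) and Kdm5d (5.42 ± 0.642) were expressed. Of 15 imprinted genes 13 (86.7%) were expressed, led by Mest (135, 193 and 188 FPKM), Gnas (169 ± 3.53) and Grb10 (140 ± 4.23). H19, an imprinted non-coding RNA, had 51.3, 73.0 and 74.2, far above its neighbour Igf2 at 2.09, 2.06 and 2.48.

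Secreted ligands were then set against their receptors in 209 pairs of 42 families, each pair scored only on the rat transcripts. RNA of the mouse cells in the same culture was not analysed here. Of the 181 ligands 159 were in the table, and 89 of them were expressed, 56.0% against 57.4% of all genes. Of 185 receptor genes 169 were in the table and 106 were expressed, 62.7%. 25 ligands and 31 receptors were near 0. Without replicate 1 the counts were 90 ligands and 107 receptors.

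Of the 170 pairs whose members were all in the table, 72 had both sides expressed, 42.4%. 35 had the ligand only, 37 the receptor only and 26 neither. Without replicate 1 the first number was 73. A pair with both sides expressed says nothing about protein or signalling.

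**Figure D3:**
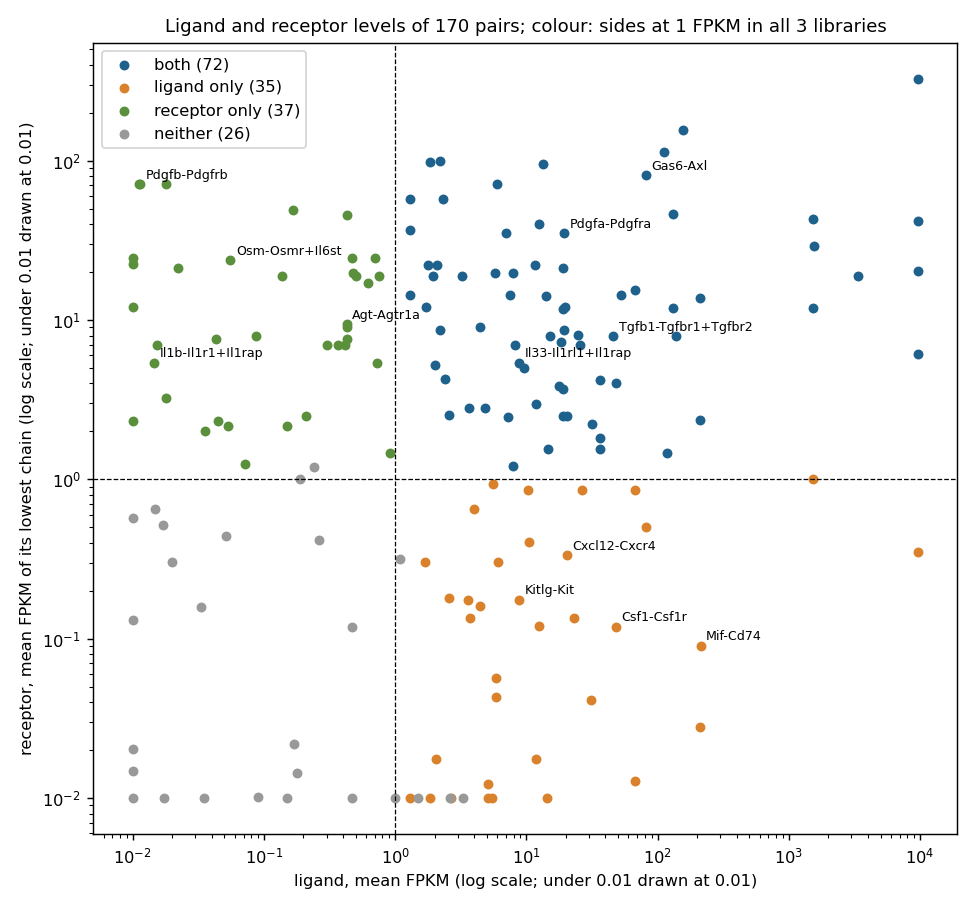
Mean FPKM of the ligand (horizontal axis, log scale) against the receptor's lowest chain (vertical axis, log scale) for 170 pairs, 1 point per pair, over the 3 untreated libraries. Dashed lines mark 1 FPKM; Csf1 and Cxcl12 lie right of the line with Csf1r and Cxcr4 below it, while Pdgfb and Osm lie left with their receptors above it.

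Families with at least 3 scored pairs and both sides in each of them were TGF-beta with 3 of 3, ephrins with 4 of 4, insulin-like growth factors with 3 of 3 and homophilic junction genes with 3 of 3. Each junction pair has the same gene on both sides and could only score both or neither. The 3 TGF-beta pairs share both receptor genes, and the insulin-like growth factor pairs reuse Igf2 and Igf1r. Pairs of these families are therefore not separate observations. The junction pairs count among the 72 above. Tgfb3 was the most abundant TGF-beta, with 94.6, 164 and 157 FPKM, then Tgfb1 with 41.2, 48.2 and 48.5 and Tgfb2 with 11.1, 17.0 and 17.2. All 3 were lowest in replicate 1. Their receptors Tgfbr2 and Tgfbr1 had 43.0 ± 5.33 and 7.89 ± 0.107 FPKM. Tgfb3 stood at 2.98 ± 0.599 times Tgfb1. Inhba, the activin A chain, had 48.3 ± 6.08 FPKM with its receptors Acvr1b (4.02 ± 0.863) and Acvr2a (5.15 ± 0.364).

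Igf1 had 25.7, 14.8 and 17.3 FPKM and its receptor Igf1r 8.67 ± 0.160. The clearance receptor Igf2r, at 99.0 ± 5.27 FPKM, stood 44.9 ± 2.22 times above its ligand Igf2. In the junction group, Gja1, connexin 43, had 195, 137 and 134 FPKM and Cdh11, the cadherin of mesenchymal cells, 114, 113 and 111.

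16 of 20 matrix pairs had both sides. Col1a1 met Itga11 (317, 331 and 335 FPKM) with Itgb1, and the collagen receptor kinases Ddr2 (41.9 ± 0.870) and Ddr1 (20.4 ± 0.556). Itga11, the fibrillar collagen integrin of fibroblasts, was the highest of the integrin α chains listed. Itga2, a collagen integrin of platelets and epithelium, had 0.349 ± 0.0983 FPKM, and the leukocyte chain Itgal was near 0.

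PDGF receptors were expressed without PDGF-B. Pdgfrb had 71.1 ± 2.22 FPKM, while Pdgfb had 0.0342, 0 and 0. Pdgfa (19.5, 20.5 and 18.2 FPKM), Pdgfc (7.04 ± 0.445) and Pdgfd (5.94 ± 0.640) were expressed, so that 3 of 4 pairs had both sides. 5 of 8 FGF pairs did. Fgf7, a factor for epithelium, led with 75.9, 40.2 and 42.1 FPKM, and Fgfr1 led the receptors at 57.5 ± 5.01. Fgf2 stood at 1.82, 1.02 and 1.04.

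6 of 12 Wnt pairs had both sides, with Rspo1 (17.6 ± 1.68 FPKM), Wnt16 (11.6 ± 1.16) and Wnt5a (10.7, 6.20 and 6.68) the highest ligands and Fzd1 (62.7 ± 10.1) and Fzd2 (49.9 ± 1.93) the highest receptors. Of 3 BMP pairs 2 did, from Bmp4 (3.23 ± 1.14) and Bmp6 (1.96 ± 0.453). Jag1, at 11.4, 21.7 and 23.9 FPKM, paired with Notch2 (21.2 ± 1.71), Notch1 and Notch3. Both hedgehog pairs scored had the receptor only, Ihh having a count of 0 and Dhh being near 0, with Ptch1 at 2.32 ± 0.169 FPKM.

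Several ligands for blood, vessel and nerve cells were expressed where their receptors were not. Csf1, the growth factor of macrophages and microglia, had 55.9, 42.6 and 46.3 FPKM against 0.119 ± 0.0585 of Csf1r. Cxcl12, the marrow chemokine that retains blood stem cells, had 35.1, 12.2 and 13.9 against 0.335 ± 0.0223 of Cxcr4, although its scavenger Ackr3 had 3.76, 1.92 and 1.81. Kitlg, stem cell factor, had 8.81 ± 0.554 against 0.176 ± 0.0254 of Kit. Csf1 and Cxcl12 were highest in replicate 1.

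Mif had 213 ± 34.8 FPKM while its receptor Cd74 had 0.0907 ± 0.0173. Vegfa had 80.01, 66.59 and 55.45 FPKM, with Kdr near 0 and Flt1 at 0.853 ± 0.115; only Nrp1 (15.4 ± 2.201) gave a VEGF pair with both sides, and the other 6 had the ligand only. The neurotrophic ligands Artn (11.9 ± 1.13) and Gdnf (2.05 ± 0.460) were expressed, with Ret and Gfra3 near 0. Nrg1 (5.12 ± 1.62) had neither Erbb4 nor Erbb3.

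The opposite held for several inflammatory cytokines, whose receptors were expressed where the ligand was not. Tnf had 0.0268, 0.0270 and 0 FPKM against 71.4 ± 5.14 of Tnfrsf1a, and 5 of 8 scored TNF superfamily pairs had the receptor only. Il1b had 0, 0.0188 and 0.0248 FPKM against Il1r1 at 20.6, 9.10 and 9.47 and Il1rap at 5.41 ± 0.194. Osm was at 0, 0.167 and 0 while Osmr had 30.9, 20.5 and 19.7 and the shared chain Il6st 59.1 ± 5.68. Il1r1 and Osmr were highest in replicate 1. Il11 was near 0 with Il11ra1 at 22.6 ± 0.639, and the interferon receptor chains Ifnar1, Ifnar2, Ifngr1 and Ifngr2 stood between 9.998 and 21.5 on average; their interferon ligands were not analysed here. Egfr (6.99 ± 0.291) met Hbegf (25.7 ± 2.45) and Tgfa (8.17 ± 0.226), while Egf, Areg, Ereg and Btc stayed under 1 FPKM.

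Of the ligands known to hold microglia at rest, Cd200 had 2.36, 1.99 and 1.69 FPKM and Cd47 22.2, 17.9 and 16.7. Their receptors Cd200r1 (5.24 ± 1.20) and Sirpa (11.8 ± 1.93), which microglia are known to carry, were read in the same rat libraries. Cx3cl1, the ligand of Cx3cr1, had 0.170 ± 0.0795 and Il34, the other ligand of Csf1r, 0.213, 0.507 and 0.690. Gas6, which binds the TAM receptors of phagocytes, had 70.3, 86.6 and 89.1 FPKM and Axl 89.7, 75.7 and 78.0. The 2 means were close, at 82.0 ± 10.2 and 81.1 ± 7.498, while Mertk stood at 0.50005 ± 0.0501. Il33, an alarmin, had 6.08, 10.17 and 10.05 FPKM and its receptor Il1rl1 15.9, 30.2 and 30.5, both lowest in replicate 1.

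Of 20 genes through which stromal cells are known to restrain immune cells, 13 were expressed, and the 65% is near the 57.4% of all genes. The lectin Lgals1 led with 737 ± 25.8 FPKM, then the haem-degrading enzyme Hmox1 (73.4 ± 8.33) and the extracellular superoxide dismutase Sod3 (63.0 ± 7.04). Ptgs2, which makes the prostaglandin precursor, had 64.6, 56.2 and 45.3 FPKM, and Il1rn, the interleukin-1 receptor antagonist, 41.4, 26.1 and 26.9. Tnfaip6, the gene of TSG-6 named in the series title, had a resting level of 15.2, 11.6 and 12.6. In these 3 genes replicate 1 was the highest. Nos2 and Il10 were at or near 0 in replicates 2 and 3, and Cd274 stood at 0.594 ± 0.0425.

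Of 18 genes of the toll-like receptor list 10 were expressed, and the 55.6% is about the 57.4% of all genes. Tlr4, the receptor for LPS, was close to the threshold, with 1.06, 0.871 and 1.23 FPKM, as was Tlr5. Its co-receptors Cd14 and Ly96 had 9.66, 7.29 and 7.73 and 7.203, 4.201 and 5.996, and Lbp, the LPS-binding protein, 47.0, 33.1 and 31.0. The adaptor Myd88 had 9.74 ± 0.611 FPKM. Tlr7, Tlr8 and Tlr9 were near 0.

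Agreement between the libraries was close over most genes. Across genes, Pearson's r on log2(FPKM + 0.5) was 0.985 for replicates 1 and 2, 0.986 for 1 and 3, and 0.992 for 2 and 3; genes are not independent replicates. The median gene differed 1.08-fold between replicate 1 and either other library and 1.06-fold between replicates 2 and 3. The median coefficient of variation was 6.55% and the 90th percentile 19.3%. The common biological coefficient of variation by edgeR, with each deposited unit taken as a fragment, was 12.7%, and 8.42% without replicate 1.

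Replicate 1 was at least 2-fold above replicate 2 for 86 genes (0.755%) and below it for 26 (0.228%). It was above replicate 3 for 77 (0.676%) and below it for 20 (0.176%). Replicate 2 was above replicate 3 for 24 genes (0.211%) and below it for 23 (0.202%).

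Replicate 1 was at least 2-fold above both other libraries for 51 genes, 0.448% of those compared, and at least 2-fold below both for 11, 0.0965%. Replicate 2 was above both for 7 genes (0.0614%) and below for 14 (0.123%). Replicate 3 was above for 5 (0.0439%) and below for 11 (0.0965%).

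**Figure D4:**
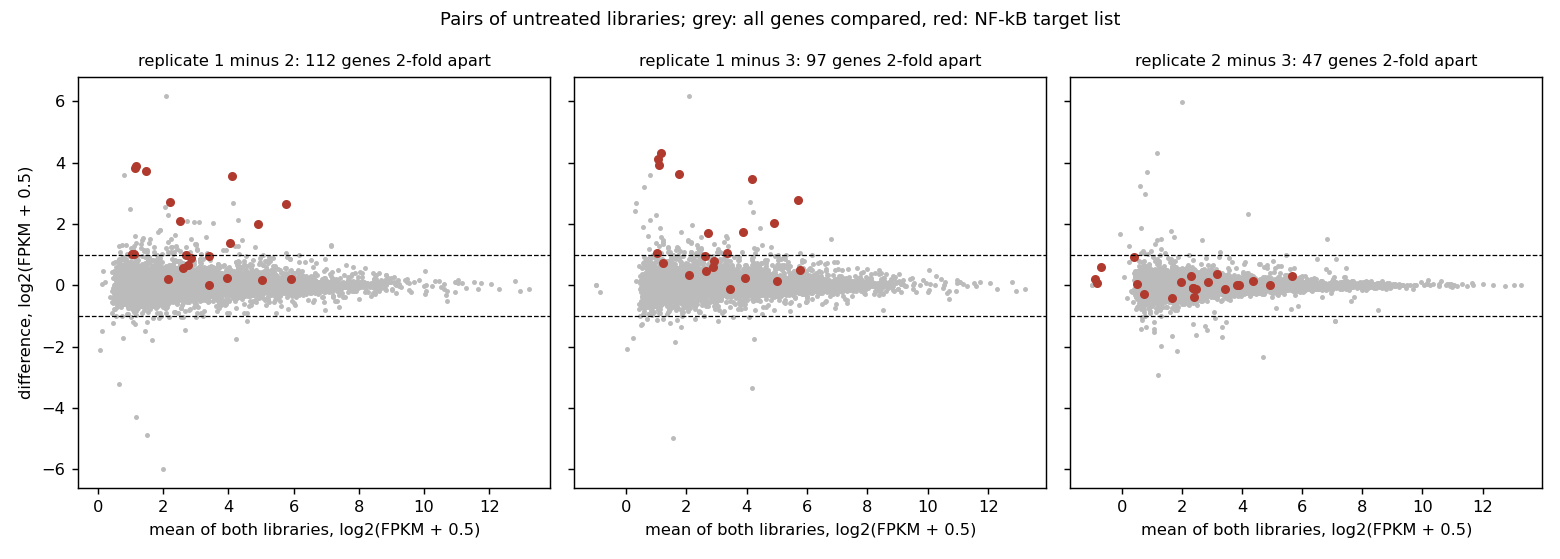
Difference between 2 untreated libraries (vertical axis) against their mean (horizontal axis), both as log2(FPKM + 0.5), for each pair of libraries and 11396 genes. Dashed lines mark a 2-fold difference and red points the NF-kB target list, which lies mostly above 0 in the 2 panels with replicate 1 and around 0 in the panel of replicates 2 and 3.

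The genes above both others in replicate 1 included chemokines and acute response genes. Ccl7, a monocyte chemokine, had 59.1 FPKM in replicate 1 against 4.55 and 4.87, 11.1-fold above the nearer library. Ccl2, its close relative, had 135 against 21.1 and 19.1, and Sod2, the mitochondrial superoxide dismutase, 59.6 against 14.4 and 14.3. Il6 had 11.3 against 2.23 and 3.15, and the complement protease C1s 40.7 against 8.97 and 10.7. The metallothioneins Mt2A (43.8 against 6.43 and 6.22) and Mt1 (16.9 against 3.65 and 5.48), metal-binding proteins, did the same.

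Of the 29 genes in the list of NF-kB targets and acute response genes, 21 had a mean of at least 1 FPKM. The list was chosen with earlier results of these data known, so its counts are a description and no independent support. Replicate 1 was at least 2-fold above both others for 10 of the 21, against 0.448% of all genes compared, and was the highest library for 20 of 21. A member with a mean of 1 FPKM could pass that filter through replicate 1 alone, as Cxcl6 (9.57, 0.254 and 0), Lcn2 (8.19, 0.0810 and 0), C3 (7.79, 0.0778 and 0.0428), Ccl20 (11.5, 1.304 and 0.459) and Mmp3 did. With the filter set on replicates 2 and 3 alone, chosen after the data were seen, replicate 1 was above both others for 5 of 16 members, 31.2%, against 0.343% of all genes so filtered. Nfkbie, an inhibitor of NF-kB, was the exception, with 9.9844, 10.0007 and 10.8066 FPKM. Icam1 had 33.6, 30.1 and 30.1, and Ptgs2 was highest in replicate 1 without reaching 2-fold. 16 members were expressed, and also 16 without replicate 1.

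**Figure D5:**
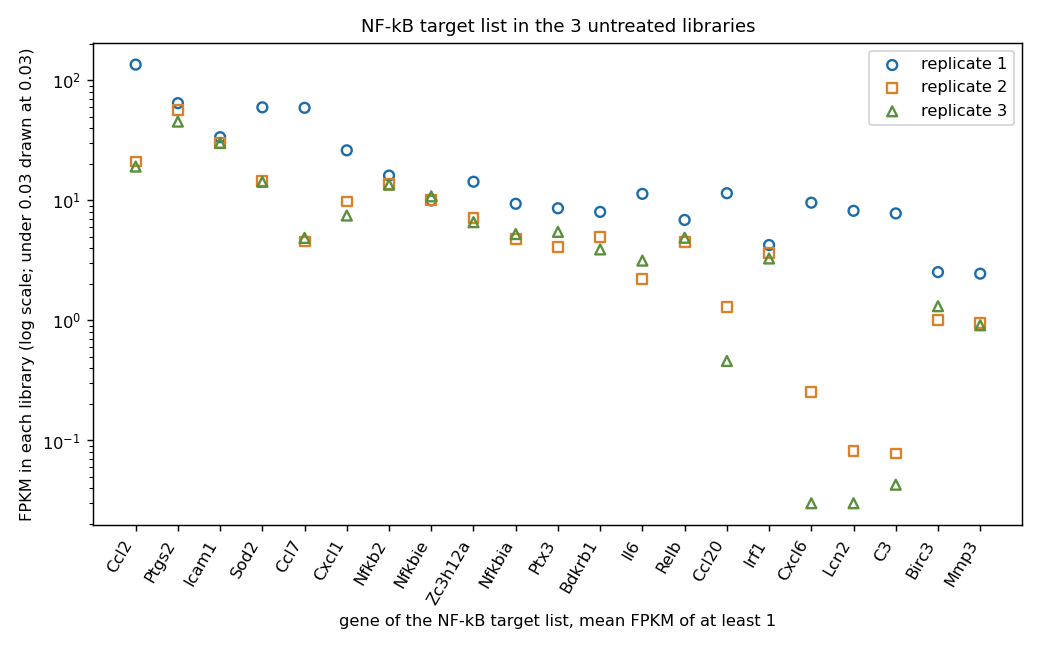
FPKM (log scale, values under 0.03 drawn at 0.03) of the 21 NF-kB target and acute response genes with a mean of at least 1 FPKM, with 1 symbol per untreated library. The circles of replicate 1 stand apart at Ccl2, Sod2, Ccl7, Ccl20, Cxcl6, Lcn2 and C3, and nearly coincide with the other symbols at Icam1 and Nfkbie.

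4 of 10 complement genes compared were at least 2-fold above both in replicate 1, against 0.448% of all genes compared. Of these, C3 passed the filter only through replicate 1, and with the filter on replicates 2 and 3 alone the count was 3 of 9, against 0.343%. The complement list was made after the table was opened and shares C3 with the NF-kB list. Its counts are therefore a description and no independent support. Matrix lists did not share a direction. Replicate 1 was the highest library for 0 of 9 fibrillar collagens, 0 of 12 chondrocyte genes and 1 of 17 smooth muscle genes, against 41.6% of all genes compared. It was the highest for 36 of 67 matrix glycoproteins (53.7%) and 10 of 27 proteoglycans (37.0%), and 0 members of these lists were 2-fold above or below both others. Below both others in replicate 1 were Ptger3, a prostaglandin receptor (3.75, 8.10 and 8.01 FPKM), and at just under 2-fold Il1rl1 and Jag1. Replicates 1 and 3 had nearly equal depth, at 80818600 and 80717943 count units. The mitochondrial genome held 2.85%, 2.60% and 2.62% of the counts and ribosomal RNA 0.162%, 0.0653% and 0.148%; the part of either in these differences was not tested.

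Some genes that stood apart overlapped another gene on the same strand. Such an overlap was present for 8.54% of the 11396 genes and for 5 of the 51 genes above and 2 of the 11 below both in replicate 1. It was present for 4 of 7 genes above and 7 of 14 below in replicate 2, and for 4 of 5 above and 4 of 11 below in replicate 3. Slc39a7, a zinc transporter, had 5.13, 10.9 and 57.5 FPKM while Hsd17b8, which overlaps it on chromosome 20, had 41.8, 40.1 and 7.64. Their summed counts were 18488, 18541 and 19021 units. The pair moved in opposite directions at a nearly constant sum.

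Rps27a on chromosome 14 and the pseudogene Rps27a-ps1 on chromosome 5 behaved alike, with 189, 190 and 65.7 FPKM and 276, 279 and 485, at summed counts of 31004, 29838 and 31096. On chromosome 13, LOC120096281 had 35.9, 0 and 0 FPKM and the overlapping ENSRNOG00000068231 0.0225, 14.8 and 15.95. The values of such genes are uncertain singly.

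19 of 185 miRNA genes were expressed, 10.3% against 57.4% of all genes. Poly(A)-selected libraries read their precursor or host transcripts, not the mature miRNAs. The highest with a RefSeq sequence included Mir22 (21.9, 20.5 and 23.2 FPKM) and Mir214 (16.6, 14.6 and 14.1), both even across libraries. The 3 genes of the cluster on chromosome 19 were lowest in replicate 2. Mir24-2 had 12.1, 5.73 and 15.6 FPKM, Mir27a 11.6, 3.76 and 10.3, and Mir23a 4.63, 1.28 and 5.12, on deposited counts of 52, 28 and 9 units in replicate 2. Their relatives on chromosome 17, Mir27b (3.15, 3.60 and 2.65) and Mir23b (3.45, 3.16 and 2.35), were not lowest there. Mature sequences are shown 5′ to 3′ with the seed, bases 2 to 8, in capitals, to show which of them share a seed.
rno-miR-27a-3p: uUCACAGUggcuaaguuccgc
rno-miR-27b-3p: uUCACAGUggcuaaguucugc
rno-miR-23a-3p: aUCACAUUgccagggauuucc
rno-miR-23b-3p: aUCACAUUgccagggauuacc
rno-miR-24-3p: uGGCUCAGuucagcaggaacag
rno-miR-22-3p: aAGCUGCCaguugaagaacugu
rno-miR-214-3p: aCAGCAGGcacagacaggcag
rno-miR-140-5p: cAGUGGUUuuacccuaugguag
The 2 miR-27 share the seed UCACAGU and the 2 miR-23 the seed UCACAUU. Mir140, a gene of cartilage, had 3.89, 6.14 and 5.61 FPKM.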

How the data were processed

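The deposited table was made on the rat assembly mRatBN7.2, and the submitters' processing notes name HISAT2 2.2.1, StringTie 2.1.6, cutadapt 1.9, edgeR and DESeq2. The authors deposited FPKM values and, beside them, estimated counts as whole numbers that were not normalized, per the file headers and the values. No source used here gives the annotation release, how strand was treated in counting, or how the estimated counts were derived. Of counts from 1 to 40, 32.0% to 32.9% were multiples of 4 against 25% by chance; that 4 units stand for 1 fragment is an assumption which this excess does not establish, and bounds on a count of 0 are given for both readings. Strand use in the counting being unknown, overlapping and antisense genes are uncertain, as are close copies.

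Libraries were grouped by their labels. Genes were called expressed at 1 FPKM in all 3 libraries. Library distances used log2(FPKM + 0.5) for genes with a mean of at least 1 FPKM. A common biological coefficient of variation was fitted with edgeR 4.0.16 (R 4.3.3, intercept only, trimmed-mean factors); DESeq2 1.42.0 gave alternative size factors. Tables were made with Python 3.11.15 and pandas 2.3.3. Both calculations were tested on simulated data. For the coefficient of variation the simulated means took 4 units as 1 fragment, so the main fit on undivided units was not covered.

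36 lists of 946 symbols, 869 of them in the table, and 209 ligand-receptor pairs were used; where a symbol had several entries the highest was taken. All were chosen with earlier results of these data known, and 8 of the lists (imprinted, immediate early, metallothionein, complement, toll-like receptor, immune regulator, Hox and ribosomal protein genes) after the table was opened. Symbols without an entry were not analysed here, and results of some genes are not reported here. Named genes are the 30 most abundant, the leading expressed members of each list and those against its class, pairs by abundance, and the genes farthest from both other libraries, summarised in part. Others named as near 0 or low were chosen after their values were seen. Promoters and miRNAs come from RefSeq tables of GRCr8.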

Additional observations from a re-analysis of the deposited data

How the results depend on the processing

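No paired analysis was possible because only the untreated group was analysed and no result comes from a test between groups. The counts of expressed genes, stromal markers, ligands, receptors and pairs stayed within 1.5 times under every threshold tried (0.5 or 2 FPKM, a mean of 1 FPKM, FPKM rescaled to TPM). Expressed genes ranged from 9679 to 12591. Microglial markers fell to 3 at 2 FPKM. Leaving out each library in turn gave 11168 to 11174 expressed genes, 17 stromal markers, 5 microglial markers, 89 to 91 ligands, 106 to 107 receptors and 72 to 73 pairs.

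The share of the 30 most abundant genes was 28.8% on counts and 22.4% without the mitochondrial genome and ribosomal RNA, and 25.5% to 25.9% with a library left out. The matrix share was 25.9% and 17.2%, and 15.6% to 16.1%. The biological coefficient of variation was 19.2% over all genes with a count, and ranged from 8.42% without replicate 1 to 14.0% without replicate 3. With counts divided by 4 and rounded it was 10.2%, so it also depends on the unit taken as a fragment.

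Counts of genes 2-fold apart depend on the filter. With no filter on low values they were 183 for replicates 1 and 2, 159 for 1 and 3 and 122 for 2 and 3, and at a mean of 5 FPKM 46, 40 and 17. Above both others at a mean of 5 FPKM were 21, 2 and 3 genes of replicates 1, 2 and 3, and below both 4, 9 and 3. With no filter, replicates 2 and 3 were above both for 22 and 18 genes and replicate 3 below both for 19. With a pseudocount of 0.1, replicate 1 was below both for 17 genes, and replicate 3 above for 9 and below for 17; with 1, the first 2 of these were 5 and 2. Scaling counts by edgeR or DESeq2 factors moved none of them by 1.5 times. The marker lists were added to the libraries left out after the data were seen, and none moved by 1.5 times; adipocyte genes went from 8 to 10 without replicate 1. With the filter on replicates 2 and 3 alone, also added after the data were seen, replicate 1 was above both others for 39 genes, 5 of the NF-kB list and 3 of the complement list. Leaving out a library cannot be applied to distances from both others.

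With 3 libraries, 1 of which stood apart, spread is poorly estimated. Genes near 1 FPKM, such as Tlr4, Myocd, Pparg and Itga4, change class with the threshold. FPKM carries no depth, and fragments overlapping 2 genes were shared out in a way not given.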
